A study of Homo sapiens with 6 samples.

Results

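Cancer-testis and germline genes are genes whose transcripts are normally held to the testis and the developing germ cells, and many of them are switched on again in tumours. Here 40 of them, found by their gene symbol among the 60546 genes of the deposited table, were followed in cells labelled as HCT-116, an established human colon carcinoma cell line. The symbols were listed with earlier results of these data known, so the list is not independent of the data, and every listed symbol was found. Of the 40 genes, 20 lie on the X chromosome.

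RNA-seq was performed on 3 libraries of HCT-116 cells carrying the viral expression vector PMSCV with a GOLPH3 cDNA (PMSCV-GOLPH3) and 3 libraries of cells carrying the empty vector (PMSCV-Vector), and the labels give the genotype as wild type for both. Each group was 1 stably infected line, harvested at different generations, so the libraries of a group are not separate infections and the p-values measure only the spread between these harvests. A number follows the letter P in each title without being defined in the labels, and it was 8, 12 and 13 for GOLPH3 replicates 1 to 3 and 12, 11 and 13 for Vector replicates 1 to 3. The deposited values are reads per gene divided by a size factor per library, called normalized reads here. Between 15708846 and 21900764 reads per library were assigned to genes, and a count of 0 still allows a level of 3 reads, or 2.47 to 3.29 normalized reads depending on the library. These limits cover counting error only.

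The GOLPH3 transcript itself was first compared, because the groups are named for it. It had 1629.5, 1271.5 and 1383.5 normalized reads in the GOLPH3 libraries and 1968, 1892 and 1472 in the Vector libraries. Its log2 fold change was -0.31 (SE 0.27, n = 3 per group, limma adjusted p = 0.609), so no rise of the transcript was detectable. From western blots of GOLPH3 protein the authors report that an overexpressing HCT-116 line was obtained, and the values here concern RNA only. "GOLPH3 libraries" and "Vector libraries" are therefore names taken from the labels throughout, and a gene called lower is lower in the GOLPH3 libraries.

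In somatic cells most cancer-testis genes are kept off by DNA methylation of promoters rich in CpG, and loss of that methylation is a known route to their expression in tumours. Many of the X-linked families (MAGE, PAGE, SSX, CT45, SPANX) stand in clusters of near-identical copies that encode tumour antigens. The germline genes on other chromosomes serve the meiotic chromosome axis, the piRNA pathway that restrains transposons, and germ-cell-specific metabolism.

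The 40 genes fell into 4 classes by their reads, and most were silent. Silent genes, with at most 3 reads in every library, numbered 25, of which 14 had no read in any library and 13 are X-linked. Constitutive genes, with more than 3 reads in every library and no call between the groups, numbered 3 (MAGEB2, MAGEA3 and SYCP3). SYCP3 stood close to that limit, with 4 to 24 reads per library, and left the class when the limit was 10 reads. Label-dependent genes, called between the groups and without overlap between them, numbered 5 (SAGE1, CT45A10, TEX15, MAGEA6 and LDHC). The remaining 7 were sporadic, with more than 3 reads in some libraries.

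All 5 label-dependent genes were lower in the GOLPH3 libraries, and 0 of the 40 genes were called higher. The test was limma on log2(normalized reads + 1) over the 26536 genes that reached 1 normalized read in 3 or more libraries, and a gene was called at a Benjamini-Hochberg adjusted p under 0.05. Of the 40 genes 16 passed that filter and 24 were not tested. Over all genes tested, 4.12% were called lower and 0.953% higher. At an unadjusted p under 0.05, limma placed 6 of the 16 lower and 1 higher, and the share of all genes at that threshold was not counted. With edgeR and DESeq2 on the recovered reads, 0 members were called higher as well. With the P number as a factor in the fit, limma called 7 members lower and 2 higher (MAGEB2 and MAGEA3), and the 2 further members called lower were CTCFL and MAGEA12. In that fit 3446 of the 26536 genes were called lower and 2636 higher, so the shares of the main fit are not its background. The summed level of the 5 label-dependent genes was 3.22, 14.02 and 17.1 normalized reads in the GOLPH3 libraries and 690, 501 and 888 in the Vector libraries. Among X-linked genes alone, 100 of 857 tested were called lower, which is 11.7%, beside 3 of the 8 X-linked members tested.

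**Figure D1:**
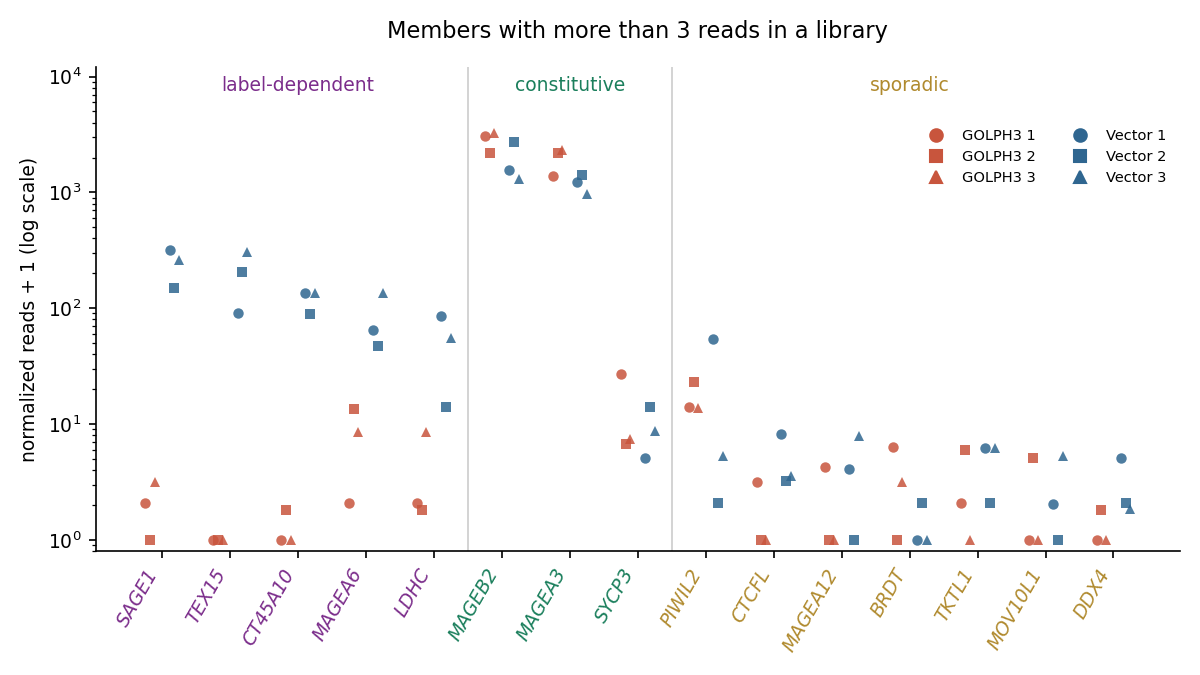
Normalized reads plus 1 (log axis) of the 15 members with more than 3 reads in at least 1 library, with 1 point per library (red GOLPH3, blue Vector, circle, square and triangle for replicates 1, 2 and 3). The 5 label-dependent genes show every Vector point above every GOLPH3 point, whereas MAGEB2 and MAGEA3 stand between 977 and 3248 in all 6 libraries.

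The MAGE family held the most abundant transcripts of the 40 genes. MAGE proteins are tumour antigens that bind RING-type ubiquitin ligases. MAGEB2 (chrX:30215560-30220089, plus strand, coordinates from GENCODE 29 on GRCh38) had 3097, 2182 and 3248 normalized reads in the GOLPH3 libraries and 1550, 2749 and 1306 in the Vector libraries. MAGEA3 (chrX:152698752-152702347, plus strand) had 1378, 2186 and 2312 against 1228, 1401 and 977. For both genes the groups overlapped.

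The log2 fold change was 0.66 for MAGEB2 (95% interval -0.06 to 1.38, limma adjusted p = 0.339) and 0.68 for MAGEA3 (95% interval 0.02 to 1.34, limma adjusted p = 0.266), so neither was called. Between the 2 libraries numbered P12 and between those numbered P13, MAGEB2 had log2 fold changes of 0.49 and 1.31 and MAGEA3 of 0.83 and 1.24. Both were called higher in the GOLPH3 libraries once the P number entered the fit as a factor (limma adjusted p = 0.000169 for MAGEB2 and 1.07e-05 for MAGEA3). That setting leaves 2 libraries unpaired, so the contrast rests on the P12 and P13 pairs. It also leaves almost no residual degrees of freedom, so its p-values rest largely on the variance that limma borrows from other genes. It called 3446 genes lower and 2636 higher of the 26536 tested, so small p-values were common under it. Per kilobase of exon the mean level of MAGEB2 was 1765 normalized reads in the GOLPH3 libraries and 1160 in the Vector libraries, and that of MAGEA3 was 1096 and 672. In both groups the lowest MAGEB2 library stood above the highest MAGEA3 library, at 1355 against 1293 per kilobase in the GOLPH3 libraries and at 811 against 784 in the Vector libraries.

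MAGEA6 (chrX:152766136-152769747, minus strand) is a near twin of MAGEA3 and was label-dependent. It had 1.07, 12.4 and 7.47 normalized reads in the GOLPH3 libraries and 63.8, 46.0 and 133 in the Vector libraries, and the groups did not overlap. Its log2 fold change was -3.59 (SE 0.73, limma adjusted p = 0.0116), with -2.28 within P12 and -3.98 within P13. Without Vector replicate 3 the log2 fold change was -3.16 and the call was lost (limma adjusted p = 0.0876). Of the reads of MAGEA3 and MAGEA6 together, MAGEA6 took 0.0778% to 0.563% in the GOLPH3 libraries and 3.18% to 11.99% in the Vector libraries. The shares did not overlap, and an exact two-sided permutation test of their difference gave p = 0.1, the smallest that 3 libraries against 3 allow. MAGEA6 was classed by the same values, so this result is a description and adds no separate support.

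The 2 genes cannot be told apart by the 300 bases around their RefSeq starts (250 before and 50 after, GRCh38.p14), which were identical at 300 of 300 positions although the genes were read at levels far apart. The last 200 bases before each start are shown for MAGEA3 and MAGEA6, followed by those of MAGEB2, read throughout, and of MAGEC2, an X-linked relative with 1 read in a single library, with every CG in capitals (13 for MAGEA3 and for MAGEA6, 14 for MAGEB2 and 6 for MAGEC2).
MAGEA3 (chrX:152698594-152698793, plus strand): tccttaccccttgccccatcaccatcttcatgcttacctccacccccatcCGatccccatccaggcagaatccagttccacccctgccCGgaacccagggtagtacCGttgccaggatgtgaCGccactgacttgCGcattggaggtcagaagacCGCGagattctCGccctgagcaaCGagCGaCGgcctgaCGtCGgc
MAGEA6 (chrX:152769690-152769889, minus strand): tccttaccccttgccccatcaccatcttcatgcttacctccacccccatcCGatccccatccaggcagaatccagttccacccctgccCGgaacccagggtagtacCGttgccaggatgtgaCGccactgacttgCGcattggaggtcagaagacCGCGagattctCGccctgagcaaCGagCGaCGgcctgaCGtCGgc
MAGEB2 (chrX:30215363-30215562, plus strand): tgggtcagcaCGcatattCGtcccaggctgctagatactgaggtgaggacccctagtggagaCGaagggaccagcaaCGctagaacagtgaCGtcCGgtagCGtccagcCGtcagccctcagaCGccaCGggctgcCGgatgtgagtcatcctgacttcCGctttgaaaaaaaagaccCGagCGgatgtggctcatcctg
MAGEC2 (chrX:142205291-142205490, minus strand): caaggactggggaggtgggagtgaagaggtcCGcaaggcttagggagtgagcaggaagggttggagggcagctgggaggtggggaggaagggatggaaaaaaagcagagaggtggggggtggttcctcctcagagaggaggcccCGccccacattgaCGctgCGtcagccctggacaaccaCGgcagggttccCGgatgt

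The transcripts of MAGEA3 and MAGEA6 are also alike, so their counts are uncertain to a degree. Of the 100-base windows of the annotated transcripts, 34.9% of those of MAGEA3 occur in MAGEA6 and 33.0% of those of MAGEA6 occur in MAGEA3. How the counting treated reads that match both is not given in the sources used here. Within 500 kb of MAGEA6, 15 of 30 annotated genes were tested and 1 was called, PNMA6A, a gene of the paraneoplastic antigen family, which was also lower (0, 0 and 0 normalized reads against 38.1, 3.29 and 93.5, limma adjusted p = 0.0142). CSAG3 and MAGEA2, the nearest tested genes, which lie on the other side of MAGEA6 from PNMA6A, had log2 fold changes of 0.41 and -0.01 and were not called. They were chosen after their values were seen.

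The other members of the family were at or near 0. MAGEA1, MAGEA4, MAGEA10, MAGEB1 and MAGEC1 had no read in any library, although MAGEB1 (chrX:30243730-30252038) lies beside the abundant MAGEB2, and MAGEC2 had 1 read. MAGEA12 was sporadic, with at most 8 reads in a library, and it overlaps the pseudogene CSAG4 on the same strand. In all, MAGEB2 and MAGEA3 made up 98.7% to 99.2% of the summed level of the 40 genes in the GOLPH3 libraries and 71.1% to 88.7% in the Vector libraries.

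Among the other X-linked cancer-testis antigens, SAGE1 and CT45A10 were off in every GOLPH3 library and on in every Vector library. SAGE1, sarcoma antigen 1, had 1.07, 0 and 2.13 normalized reads in the former and 316, 148 and 262 in the latter. CT45A10, a member of the CT45 antigen family, had 0, 0.825 and 0 against 135, 87.6 and 135. The mean of the Vector libraries was 75.1-fold for SAGE1 and 37.0-fold for CT45A10 above 3.22 normalized reads, the highest GOLPH3 level that 3 reads stand for. These ratios use the mean, so they are not minima over single Vector libraries. The fitted log2 fold changes, which depend on the added 1, were -6.95 for SAGE1 (SE 0.60, limma adjusted p = 1.7e-05) and -6.59 for CT45A10 (SE 0.58, limma adjusted p = 1.98e-05). Within P12 and P13 they were -8.31 and -6.39 for SAGE1 and -6.22 and -7.08 for CT45A10. Of all genes tested, 2.59% were off in this sense (at most 3 reads) in every GOLPH3 library and above 3 reads in every Vector library, beside 3 of the 16 members tested. The reverse, off in every Vector library and on in every GOLPH3 library, held for 117 of all genes tested and for 0 members. The 3 members off in the GOLPH3 libraries, SAGE1, CT45A10 and TEX15, passed the filter only through their Vector libraries. The members were also listed with earlier results known, so their share beside that of all genes is a description and not a test.

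SAGE1 and CT45A10 are neighbours that point away from each other. In GENCODE 29 CT45A10 (chrX:135881063-135889086) is on the minus strand and SAGE1 (chrX:135889205-135913061) on the plus strand, with 118 bases between them. RefSeq places a start of each further along the X chromosome, at 135893716 for SAGE1 and 135893444 for CT45A10, 271 bases apart and again facing away from each other. It places a second start of CT45A10 at 135888896, whose window (5 CG in the 200 bases before it) holds no ETS motif and is not shown. The 200 bases before the 2 starts that face away from each other share 129 bases, read in opposite directions, and are shown because they are the letters between 2 genes read in the same libraries, with every CG in capitals (11 and 13).
SAGE1 (chrX:135893516-135893715, plus strand): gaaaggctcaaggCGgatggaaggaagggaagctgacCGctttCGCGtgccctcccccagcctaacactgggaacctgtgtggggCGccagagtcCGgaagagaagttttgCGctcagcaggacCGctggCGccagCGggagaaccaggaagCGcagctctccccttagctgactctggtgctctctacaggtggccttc
CT45A10 (chrX:135893445-135893644, minus strand): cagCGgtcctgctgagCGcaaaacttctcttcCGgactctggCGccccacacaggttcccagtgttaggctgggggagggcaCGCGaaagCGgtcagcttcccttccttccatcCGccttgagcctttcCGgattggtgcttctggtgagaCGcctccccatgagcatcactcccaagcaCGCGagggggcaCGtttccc

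The ETS motif CCGGAAG, searched on both strands, occurs once in this shared stretch (chrX:135893610-135893616) and so counts in both windows. It is in 10.3% of all 35116 promoter windows of the RefSeq table and in 6 of the 51 windows of the members. A match is a description of the letters only. CT45A10 is uncertain as a single gene, because 63.5% of its 100-base transcript windows occur in other genes, 56.5% in CT45A7, which had no read in any library. SAGE1 shares none.

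Other genes of the neighbourhood were called too. Of 34 annotated genes within 500 kb of SAGE1, 24 were silent and 12 were tested. Of the 12, 3 were called, all lower (CT45A10, FHL1 and the pseudogene E2F6P4), beside 4.12% of all genes and 11.7% of X-linked genes. CT45A10 is itself a member, listed with earlier results known, so the count is not a test of the neighbourhood. E2F6P4 was close to the limit of 3 reads, with 0, 0 and 0 normalized reads against 4.12, 4.38 and 4.29 (limma adjusted p = 0.0427). FHL1, a LIM domain protein of muscle, was still read in the GOLPH3 libraries (439, 334 and 413 against 2293, 1346 and 2042, log2 fold change -2.23, limma adjusted p = 0.000624). CT45A1, chosen after its values were seen, had 2.15, 0.825 and 2.13 against 7.21, 16.4 and 11.2 without passing the threshold (limma adjusted p = 0.0736).

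**Figure D2:**
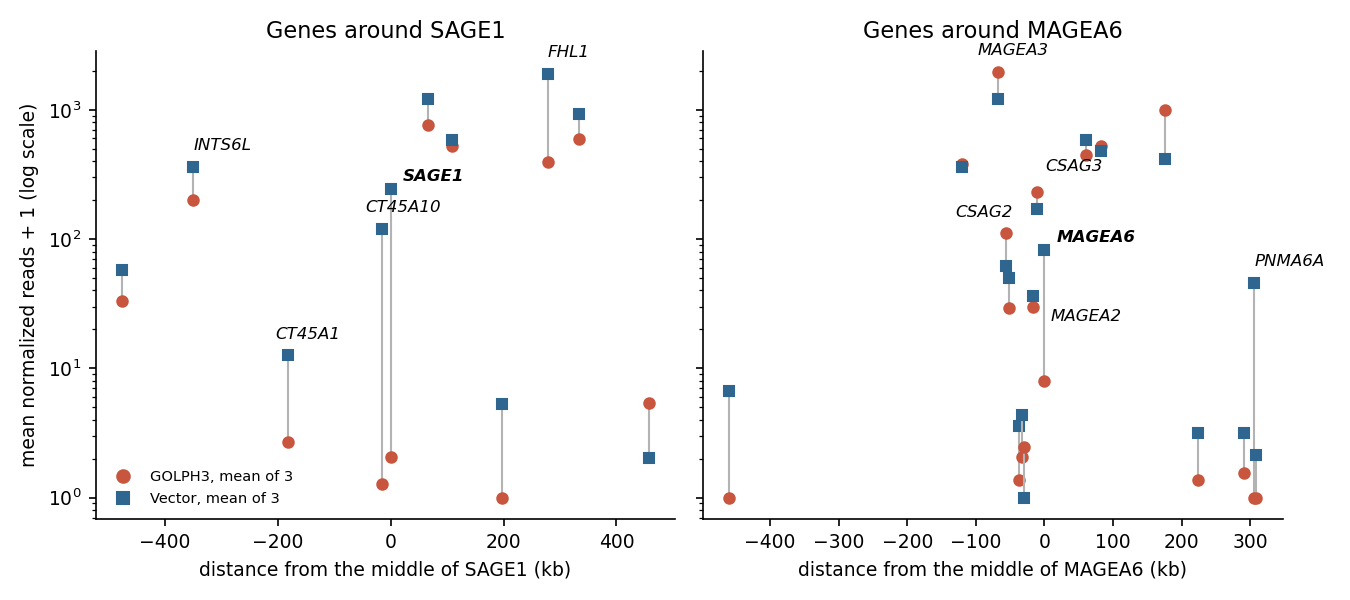
Mean normalized reads plus 1 (log axis, n = 3 libraries per group) of genes with more than 3 reads in some library, by the distance of their middle from the middle of SAGE1 (left) and of MAGEA6 (right) in kilobases, with a line joining the groups of a gene. CT45A10 and SAGE1 drop together to the bottom of the left panel, and on the right MAGEA6 falls apart from MAGEA3, CSAG3 and MAGEA2, whose groups lie close together.

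The remaining 7 X-linked antigens were silent. PAGE1, CT83, CTAG2 and SPANXB1 had no read, and PAGE2 and PAGE5 had 1 read each in 1 library. SSX1, a repressor best known from the fusion genes of synovial sarcoma, had at most 3 reads, and although its groups did not overlap (0, 0.825 and 1.07 against 3.09, 3.29 and 1.72 normalized reads) it was not called (log2 fold change -1.22, limma adjusted p = 0.368).

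LDHC, the lactate dehydrogenase of sperm, was the label-dependent gene among the germline-specific enzymes and the least stable of the 5. It had 1.07, 0.825 and 7.47 normalized reads in the GOLPH3 libraries and 85.4, 13.1 and 54.1 in the Vector libraries. The groups did not overlap, but Vector replicate 2 lay close to GOLPH3 replicate 3. Its log2 fold change was -3.68 (SE 0.82, limma adjusted p = 0.0208), with -5.57 within P12 and -2.70 within P13. The call was lost without GOLPH3 replicate 2 (limma adjusted p = 0.0508), Vector replicate 1 (0.120) or Vector replicate 3 (0.108). LDHC lies on chromosome 11 (chr11:18412307-18452058, plus strand) between LDHA and LDHAL6A, and 0 of the 23 genes tested within 500 kb were called. The 200 bases before its RefSeq start, with 17 CG in capitals, are shown because, of the label-dependent genes that are not X-linked, LDHC is the one with a RefSeq window.
LDHC (chr11:18412118-18412317, plus strand): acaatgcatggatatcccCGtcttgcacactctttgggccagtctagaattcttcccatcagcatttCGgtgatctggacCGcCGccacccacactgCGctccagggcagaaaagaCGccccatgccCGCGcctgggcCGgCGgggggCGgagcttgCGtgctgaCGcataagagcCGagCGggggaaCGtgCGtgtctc

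The other enzymes of this group were low. STK31, a kinase-domain protein of spermatogonia, had at most 1 read. TKTL1, a transketolase-like gene on the X chromosome, was sporadic, with 1.07, 4.95 and 0 normalized reads against 5.15, 1.10 and 5.15, and the groups overlapped.

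Across the members, the CpG counts of the classes overlapped. RefSeq windows of 300 bases were found for 34 of the 40 genes, 51 windows in all, and none was found for CTAG2, HORMAD1, MAGEA1, MAGEA10, PIWIL2 and TEX15. The median CpG count was 18 in the 5 windows of label-dependent genes (from 9 to 25), 21 in the 3 of constitutive genes (from 19 to 24) and 14.5 in the 32 of silent genes (from 1 to 60). The median was 14 over all promoter windows and 23 over those of the genes tested. The E-box CACGTG was in 9 of the 51 member windows and in 7.26% of all windows, and the E2F motif GCGGGAA in 4 and in 6.55%. Both strands were searched, and overlapping windows of BRDT and of TDRD1 that held the E-box were counted separately. Neither motif was in a window of a label-dependent or constitutive gene. Those classes hold only 5 and 3 windows, so at these shares an absence says little about them.

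TEX15 was the label-dependent gene of meiosis. It encodes a testis protein needed for meiotic recombination and for silencing of transposons in germ cells, and it spans 30831544 to 30913003 on the minus strand of chromosome 8. It had no read in any GOLPH3 library and 89.5, 206 and 305 normalized reads in the Vector libraries. The mean of the Vector libraries was 62.1-fold above 3.22 normalized reads, the highest GOLPH3 level that 3 reads stand for. The fitted log2 fold change was -7.48 (SE 0.61, limma adjusted p = 1.2e-05), with -6.50 within P12 and -8.26 within P13. Of 14 genes tested within 500 kb, the 1 called was PURG, a purine-rich element binding protein, also lower (3.22, 0.825 and 0 normalized reads against 22.6, 28.5 and 32.6, limma adjusted p = 0.00417).

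None of the other meiotic members was called. SYCP3, a component of the axis of paired meiotic chromosomes, had 25.8, 5.77 and 6.40 normalized reads in the GOLPH3 libraries and 4.12, 13.1 and 7.72 in the Vector libraries. The groups overlapped, and the log2 fold change was 0.36 (95% interval -1.19 to 1.91, limma adjusted p = 0.84), with the sign turning when GOLPH3 replicate 1 was left out (-0.28) or Vector replicate 1 (-0.01). Its partner SYCP1 had no read, and HORMAD1 had at most 2. BRDT, a testis bromodomain protein, and CTCFL, the germline relative of the insulator protein CTCF, were sporadic with at most 5 and 7 reads. CTCFL had 2.15, 0 and 0 against 7.21, 2.19 and 2.57 normalized reads without passing the threshold (log2 fold change -1.63, limma adjusted p = 0.272).

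Genes of the piRNA pathway and of germ cell identity were at or near 0 with 1 exception. PIWIL2, an Argonaute protein of the piRNA pathway, had 12.9, 22.3 and 12.8 normalized reads in the GOLPH3 libraries and 53.5, 1.10 and 4.29 in the Vector libraries. The levels of the Vector libraries spread 48.9-fold, wider than any difference between the groups (log2 fold change 0.96, limma adjusted p = 0.673), with -1.23 within P12 and 1.38 within P13. PIWIL1, TDRD9 and DDX43 had no read, MAEL, TDRD1 and ASZ1 had at most 3, and MOV10L1, an RNA helicase, was sporadic with at most 5. Of the germ cell identity genes, the RNA-binding protein DAZL had no read, TEX101 and PRAME had 1, and the helicase DDX4 had at most 4.

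**Figure D3:**
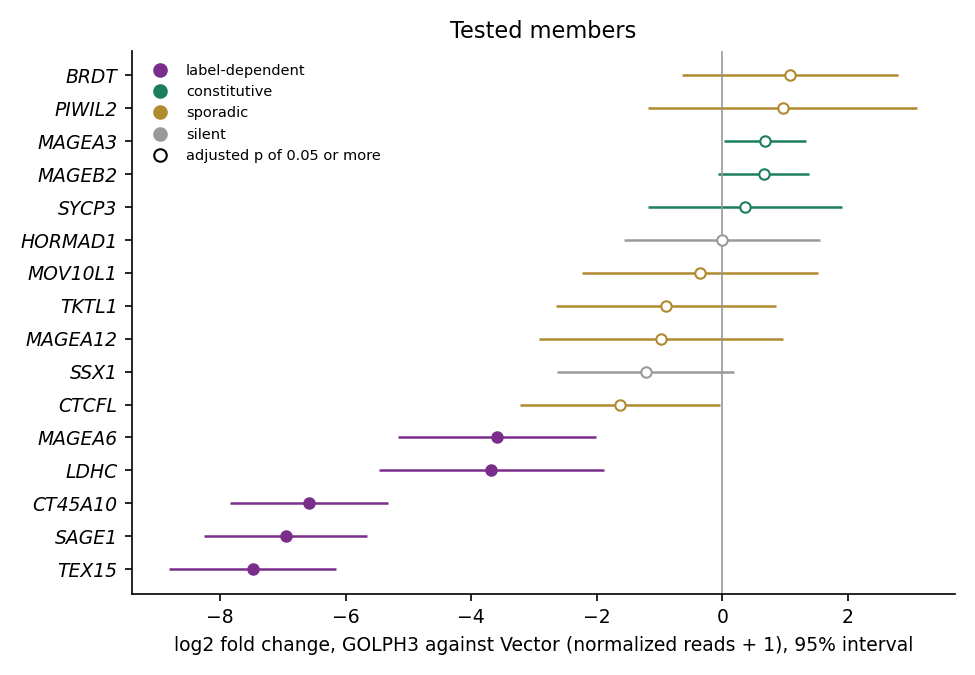
Log2 fold change of normalized reads plus 1, GOLPH3 against Vector, with its 95% interval from limma for the 16 members tested, coloured by class and filled where the adjusted p was under 0.05. The 5 filled points lie between -3.59 and -7.48, and the 11 open points between -1.63 and 1.08.

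**Figure D4:**
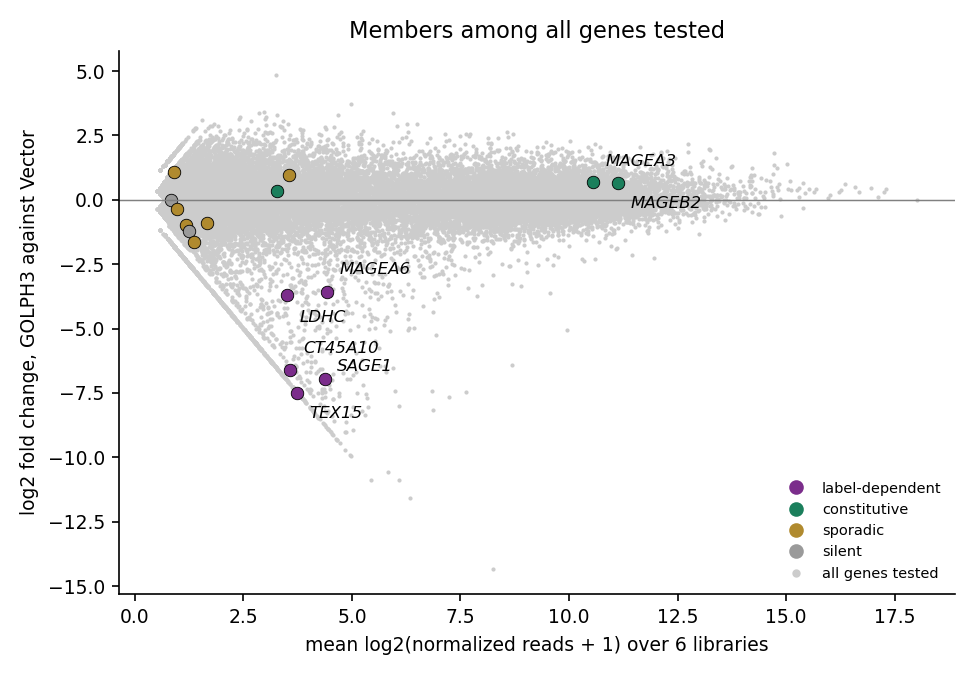
Log2 fold change (GOLPH3 against Vector) against the mean log2(normalized reads + 1) over the 6 libraries for the 26536 genes tested (grey) and the 16 members (coloured by class). TEX15, CT45A10 and SAGE1 lie along the lower edge with other genes off in the GOLPH3 libraries, and MAGEB2 and MAGEA3 lie at high level near 0.

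In a wider set of germline genes the share called was near that of all genes. Lists of other X-linked cancer-testis genes, meiosis genes, piRNA pathway genes, sperm and germ cell differentiation genes, proliferation-linked cancer-testis antigens and factors that silence germline genes held 284 genes of the table. Of these, 152 were tested, 7 were called lower, which is 4.61% beside 4.12% over all genes tested, and 0 were called higher. limma's unadjusted p was under 0.05 for 22 lower and 7 higher. The share of all genes at that threshold was not counted, so such counts, here and for the single lists, have no background. DESeq2 called 2 higher where edgeR called 0.

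The list of other X-linked cancer-testis genes, which also held the autosomal TKTL2, was silent in 79 of 93 cases. Of its genes 0 of 14 tested were called (3 lower at an unadjusted limma p under 0.05), and TKTL2 was silent and not tested. Of 38 other meiosis genes tested 2 were lower. The first was DMC1, the recombinase of meiotic strand exchange, with 2.15, 4.95 and 0 normalized reads against 183, 105 and 166 (log2 fold change -5.80). The second was SYCP2, a partner of SYCP3 on the chromosome axis, with 3.22, 0.825 and 2.13 against 8.23, 37.2 and 25.7.

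The piRNA list had 0 calls among 19 tested (1 lower and 3 higher at an unadjusted limma p under 0.05), and all 18 proliferation-linked antigens were read without a call (1 in each direction). Of 36 sperm and germ cell differentiation genes tested, 4 were lower, with the smallest p for KIT, a receptor kinase of spermatogonia and of several other cell types (0, 0 and 1.07 against 119, 61.3 and 259), TMEM108 (0, 0 and 0 against 59.7, 35.1 and 106) and PLAC1, a placental gene (6.44, 10.7 and 6.40 against 64.8, 28.5 and 51.5). Of 29 silencing factors tested the 1 called was ZBTB16, a transcription factor of spermatogonial stem cells (0, 0 and 0 against 35.0, 15.3 and 71.2). The DNA methyltransferases, named outside the rule for other genes, were read in all libraries, with log2 fold changes of -0.13 for DNMT1, 0.07 for DNMT3A and 0.26 for DNMT3B (limma adjusted p = 0.853, 0.929 and 0.72).

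**Figure D5:**
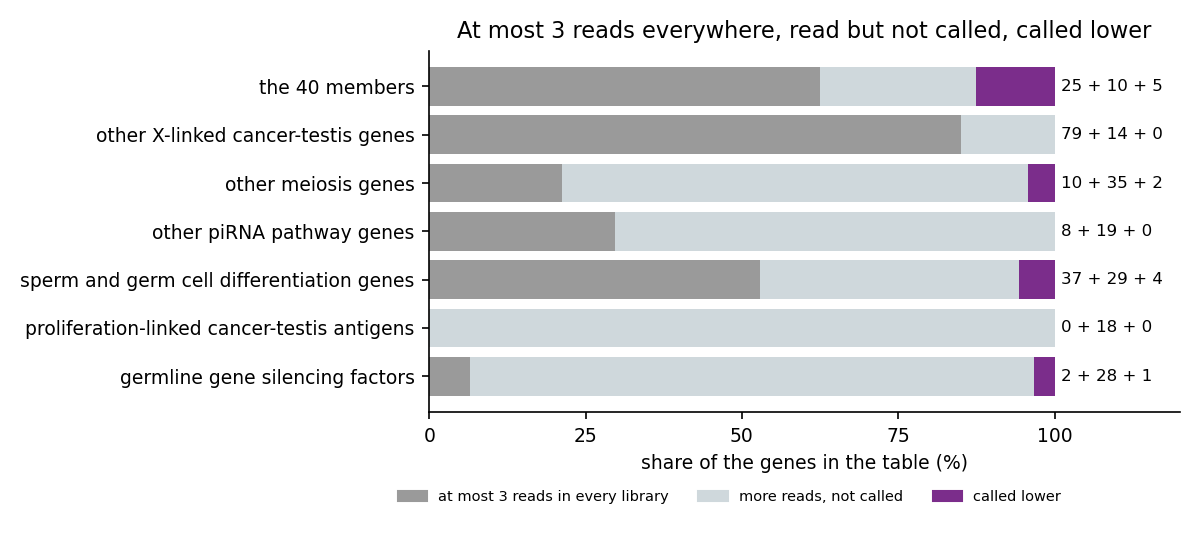
Share of the genes of each list without more than 3 reads in any library (grey), more reads without a call (pale) or a call lower in the GOLPH3 libraries (purple), with the 3 counts at the right. The 40 members show 25, 10 and 5 and the list of other X-linked cancer-testis genes, which also holds the autosomal TKTL2, shows 79, 14 and 0.

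Most of the HEK293 markers tested were lower in the GOLPH3 libraries, as the label-dependent genes were. Of 12 genes characteristic of HEK293, an embryonic kidney line with neuronal features, 10 were tested and 7 were lower (IRS4, NEFM, NEFL, UCHL1, HAND1, ZEB2 and CDH2). All 7 had at most 3 reads in every GOLPH3 library and more than 3 in every Vector library. That held for 2.59% of all genes tested, and 4.12% were called lower. The list was chosen with earlier results of these data known, so these counts are a description and not a test. The sum over the list was 264 to 510 normalized reads in the GOLPH3 libraries and 3335 to 10851 in the Vector libraries. IRS4, NEFM, UCHL1, HAND1 and ZEB2 had no read in any GOLPH3 library and so passed the filter only through their Vector libraries. CRABP1 had no read in any library, INA and LHX1 had at most 3, and PAX2 and PAX8 were read throughout. The list was lowest in Vector replicate 2 and highest in Vector replicate 3. SAGE1, CT45A10, MAGEA6 and LDHC were also lowest in Vector replicate 2 within that group, and TEX15 and MAGEA6 highest in Vector replicate 3. The order differed for the others, with TEX15 lowest in Vector replicate 1 and SAGE1 and LDHC highest there, while CT45A10 was level between Vector replicates 1 and 3. The part of such markers in the result was not tested.

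Of 10 fibroblast markers 1 was lower (PDGFRA), while the sum was 825 to 1517 normalized reads in the GOLPH3 libraries against 488 to 811 in the Vector libraries. Of 9 Sertoli and Leydig cell markers 0 of 6 tested were called (1 lower and 3 higher at an unadjusted limma p under 0.05), with a sum of 607 to 1106 against 356 to 950. Of 15 colon epithelium markers 11 were tested, and KRT18 and KRT19 were higher. The list's sum was 62864 to 134430 normalized reads in the GOLPH3 libraries and 30027 to 41161 in the Vector libraries. KRT20 and FABP1 had no read, CDX1 and TFF3 had at most 2, and EPCAM, CDH1, KRT8 and CDX2 were read in all libraries. Of 12 germ cell defining markers, 4 of which are also members, 0 of 4 tested were called (1 lower at an unadjusted limma p under 0.05). DAZL, DPPA3, PRM1, PRM2, TNP1, SYCP1 and ZPBP had no read, and the list's sum was 10.7 to 28.98 against 14.4 to 19.7. The labels give HCT-116 for all 6 libraries, and the identity of the cells was not tested. In bulk RNA, fewer cells with a transcript and less of it per cell cannot be told apart, for the members as for the markers.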

How the data were processed

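RNA from 3 HCT-116 libraries per group was sequenced. Per the submitters' processing notes, fastp 0.20.0, HISAT2 2.1.0, Cufflinks, featureCounts 1.6.1, DESeq2 and GRCh38 were used, and the annotation release is not given in the sources used here. The deposited signal is reads per gene that the authors scaled by 1 size factor in each library, since 100% of nonzero values were whole multiples of 1 step per library (tolerance 0.05 of a read). It is not corrected for length, so levels of different genes were compared per kilobase of GENCODE 29 exon. The table had 60590 rows for 60546 identifiers, and the 44 repeated rows were added to their first row. Coordinates came from GENCODE 29, which held 96.4% of the identifiers, and sequences from RefSeq windows on GRCh38.p14.

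limma 3.58.1 in R 4.3.3 (trend) was applied to log2(value + 1), with a filter of 1 in at least 3 libraries and Benjamini-Hochberg adjustment over all 26536 genes. Levels are given as the values of the 3 libraries, with the standard error of the log2 fold change. No 2 libraries of a group agreed within sampling noise, with a chi-square per degree of freedom of 66.65 to 135.6. The closest pair crossed the groups (GOLPH3 replicate 1 and Vector replicate 2, 63.5). Mitochondrial genes took 9.97%, 4.41% and 9.75% of reads in GOLPH3 replicates 1 to 3. In Vector replicates 1 to 3 they took 7.08%, 9.88% and 4.71%. Because the recovered reads were whole, edgeR 4.0.16 and DESeq2 1.42.0 were run on them as alternatives, together with other filters, pseudocounts, a quantile normalization, the replicate and P numbers in the fit, and each library left out. The fits were also run on simulated counts with a fixed dispersion and changes only in well-read genes. That run checked the code and not how the fits behave on these libraries. Values were given in every library for label-dependent and constitutive genes, and from other lists and neighbourhoods for at most 3 called genes with the smallest p. The members and lists were chosen with earlier results of these data known. The blood cell marker list is not reported here.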

Additional observations from a re-analysis of the deposited data

How the results depend on the processing

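SAGE1, CT45A10 and TEX15 were called lower in every setting that tested them, by limma, edgeR and DESeq2. Leaving out a Vector library left genes read in that group alone with 2 libraries, which the filter of 3 removes, so each library was also left out with a filter of 2 libraries, chosen after seeing the data. These 3 genes were then called in all 6 fits (limma adjusted p at most 0.00389), whereas MAGEA6 was lost without GOLPH3 replicate 2 (0.0657) and Vector replicate 3 (0.123), and LDHC without GOLPH3 replicates 1 and 2 and Vector replicates 1 and 3 (0.0609 to 0.218).

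With libraries left out, under either filter, the members called lower were 1 to 5 (all label-dependent), the genes called lower 346 to 1124 and higher 27 to 404, and the genes of the other lists called lower 2 to 8 and higher 0 to 1. SYCP3 ranged from -0.28 to 0.72. With 1 normalized read required in every library, which removes genes off in 1 group, 282 genes were called lower and 123 higher, 1 member and 1 gene of the other lists were lower, and the classes held 1 label-dependent and 11 sporadic members. A limit of 10 reads for silence left 31 silent, 2 constitutive and 2 sporadic members, and SYCP3 was no longer constitutive. Genes called higher were 159 with a pseudocount of 0.1 and 603 with DESeq2, which called 2 genes of the other lists higher. The GOLPH3 transcript had -0.63 within P12 and -0.089 within P13.

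With the P number as a covariate 900 genes were called higher, 13 genes of the other lists were lower and 1 higher, and SYCP3 turned to -0.037. With it as a factor, which leaves 2 libraries unpaired, 3446 genes were lower and 2636 higher, with 7 members and 22 other list genes lower and 2 members and 13 other list genes higher. The replicate numbers did not pair the libraries (correlations of deviations -0.232, -0.151 and 0.259), while the 2 pairs that share a P number had 0.256 and 0.259 and the pair of GOLPH3 replicate 1 and Vector replicate 2 had 0.331. With the replicate number as a block, 4 genes of the other lists were called lower in place of 7. The cause of these changes was not tested. At this depth a level of up to 3 reads cannot be told from 0, so silent means not detected.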
